A study of Rattus norvegicus with 36 samples.

Results

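The data compared here were gene counts from paired brain regions of the same rat, prefrontal cortex (PFC) and nucleus accumbens (NAc). A rat was included when its title code occurred with both regions, which held for 17 of the 19 rats and gave 34 of the 36 libraries, 17 from each region. Rats N9 and R6 had 1 region each and were left out. The animals were Sprague Dawley rats (written Sparague Dawley in the labels) trained on the rat gambling task (rGT), in which an animal learns how signals on a touch screen relate to rewards and punishments of different size and probability. Once their free choices had stabilised, 9 of these 17 rats had been classified as risk-averse and 8 as risk-seeking, so all carried the same training and no rat was untrained. The labels give no treatment, sex or age, and the extraction protocol specifies the PFC tissue as medial prefrontal cortex. Each library was prepared from total RNA of dissected tissue.

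The PFC is a layered cortex whose projection neurons are mostly glutamatergic pyramidal cells, which send axons to other cortical areas and below the cortex, with a smaller population of local GABAergic interneurons. The NAc is the ventral part of the striatum. Its principal cells are GABAergic spiny projection neurons, which receive glutamatergic input from the PFC, hippocampus and amygdala and dopamine input from the midbrain, and both regions take part in choices under reward and punishment. Tissue pieces also hold glia and vascular cells, so in these bulk samples fewer cells of a type and less RNA per cell cannot be told apart. The deposited tables identify genes by Ensembl rat identifier alone. None of the 32623 identifiers could be paired with a symbol, so gene functions are not given, and the region labels were not checked here against marker genes of spiny projection or cortical neurons.

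PFC libraries held 20787526 to 34761269 counts over genes and NAc libraries 18436025 to 33390551. The mean depth of the regions did not differ beyond the spread over the 17 rats (permutation over all 131072 sign patterns, two-sided p = 0.552, adjusted p = 0.552 over 7 measures). The share of read pairs that HTSeq assigned to no annotated feature differed: it was 24.25% ± 1.68 in PFC and 26.7% ± 2.18 in NAc (SD, n = 17), and was lower in the PFC library of all 17 rats (adjusted p = 3.56e-05; the raw p of 1.53e-05 is the smallest these permutations can give). The PFC also had fewer genes at 1 CPM or more (CPM, a gene's count scaled to the same library total in every sample), 13690 ± 107 against 13990 ± 122, again in all 17 rats (permutation, adjusted p = 3.56e-05). Alignments to more than 1 place made up 13.2% ± 0.46 in PFC and 12.65% ± 0.353 in NAc, higher in the PFC of 16 of 17 rats (permutation, adjusted p = 5.34e-05). The part of these read categories in the gene results was not tested beyond the covariate fit given below.

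Within rats, most measured genes had a different level in the 2 regions, and most of these differences were small. Of 15488 genes tested with the rat as a block (edgeR's quasi-likelihood test, Benjamini-Hochberg adjusted p under 0.05), 12703 were called (82.0%), of which 6244 were higher in PFC (40.3% of those tested) and 6459 lower (41.7%). The median absolute log2 fold change of the called genes was 0.41, a 1.33-fold difference, and its quartiles were 0.22 and 0.80. A fitted fold under 1.25 applied to 5084 of the called genes and a fold under 2 to 10243 (80.6%). The median standard error was 0.0421 on the log2 scale, and the smallest difference called was 0.0448.

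Large differences were fewer and went both ways. A test against a bound of 2-fold, which asks whether the difference exceeds that size and not merely 0 (edgeR's glmTreat, adjusted p under 0.05), called 2057 genes (13.3%), 972 higher in PFC and 1085 higher in NAc. By fitted fold alone, 387 called genes were at least 4-fold higher in PFC and 504 at least 4-fold higher in NAc. At 16-fold the counts were 72 and 118. The genes of the tail differed in both directions, and at each of these folds more of them were higher in NAc.

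**Figure D1:**
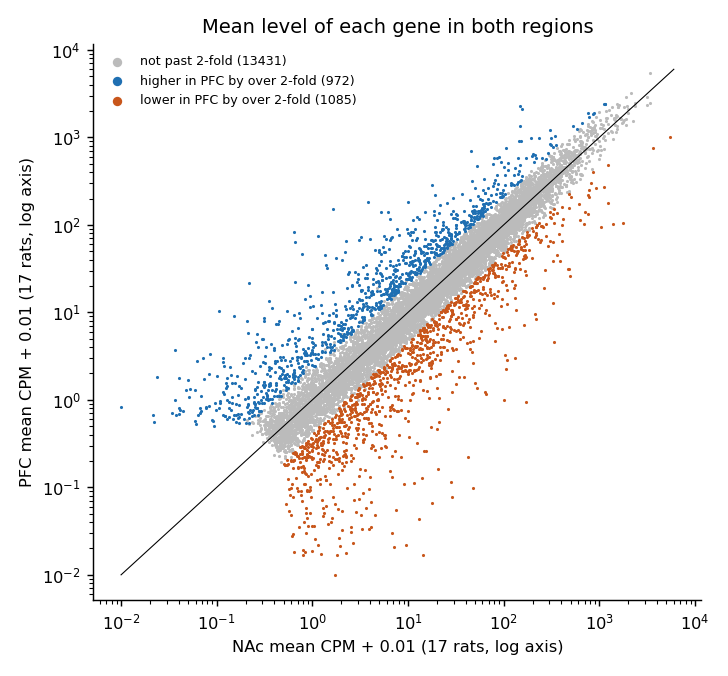
Mean level of each tested gene in NAc (horizontal) and PFC (vertical), in CPM plus 0.01 on log axes, each point the mean of 17 rats, with the 2057 genes past the 2-fold bound in colour. Most genes lie close to the diagonal (r = 0.939 across genes, which are not independent replicates), and the coloured genes leave it on both sides.

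The gene sets past the 2-fold bound took up a visible part of each library. The 972 genes higher in PFC held 8.55% ± 0.289 of the gene counts of PFC libraries and 2.92% ± 0.197 of those of NAc libraries (SD, n = 17). The 1085 genes higher in NAc held 1.59% ± 0.0715 of PFC counts and 6.76% ± 0.246 of NAc counts. The shares did not overlap between regions: the lowest PFC library held 7.76% of its counts in the PFC-higher genes, and the highest NAc library held 3.21%. These genes were chosen on the same libraries, so the shares describe them and carry no test.

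Near equality was also common. For 4455 genes (28.8% of those tested) the 95% interval of the fold lay wholly within 1.2-fold, and 2500 of these were nonetheless called different. For 1550 genes (10.0%) it lay within 1.1-fold, and 298 of these were called. Of the 2785 genes not called, 1955 had an interval within 1.2-fold, whereas 148 had an interval that reached past 1.5-fold, so that for these a difference of that size was not excluded. Among genes not called, 457 had a mean under 1 CPM.

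Abundance and direction were related. Genes were sorted into quartiles by their mean CPM over both regions. In the lowest quartile (0.28 to 4.69 CPM) 2900 genes were called, 1116 higher and 1784 lower in PFC, so that 38.5% of the calls were higher in PFC. In the second quartile (4.69 to 22.2 CPM) the calls were 1348 higher and 1824 lower. In the third (22.2 to 63.6 CPM) they were 1682 higher and 1582 lower. In the highest quartile (63.6 to 4420 CPM) 3367 genes were called, 2098 higher and 1269 lower, so that 62.3% were higher in PFC. Rare transcripts were thus more often higher in NAc and abundant ones more often higher in PFC, while TMM scaling placed the median log2 fold change of all tested genes at -0.006. The quartile pattern kept its direction without the rat block (38.2% and 63.0%), with RLE size factors (38.5% and 62.3%) and with the unassigned share as a further covariate (40.7% and 64.1%).

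**Figure D2:**
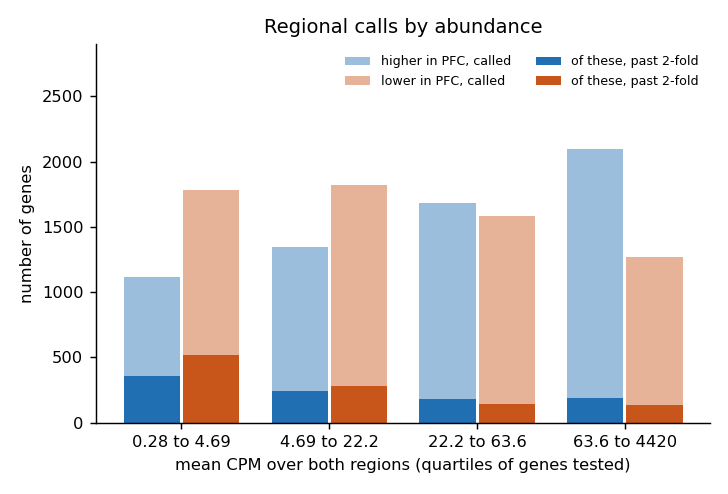
Number of called genes higher and lower in PFC (vertical axis, from 0) in each quartile of mean CPM (horizontal axis), with those past the 2-fold bound in the darker part of each bar. Lower calls outnumber higher ones in the lowest quartile (1784 against 1116), and higher calls outnumber lower ones in the highest (2098 against 1269).

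Differences past the 2-fold bound were concentrated in the rarer genes. They numbered 882 in the lowest quartile, 361 higher and 521 lower in PFC, then 523, 327 and 325 in the quartiles above. In the highest quartile 187 were higher in PFC and 138 lower. Among the 9467 genes with a mean of at least 10 CPM in both regions, 7975 were called and 622 passed the 2-fold bound. Of all tested genes, 82.0% were called and 13.3% passed that bound. A minimum level in both regions leaves out genes that are low in 1 region, so the count of 622 is in part set by this choice. The most abundant transcripts were largely shared: 73 of the 100 most abundant genes of PFC were also among the 100 most abundant of NAc, and 5 of the leading 10. Of the PFC's leading 100, 77 were higher and 20 lower in PFC. Of the NAc's leading 100, 51 were higher and 44 lower in PFC. Each of these sets was chosen by its level in 1 region, which favours calls in that region's direction.

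Near-exclusive expression was rare. With a mean of at least 1 CPM in one region and under 0.1 CPM in every library of the other, 15 genes were found in NAc alone and 2 in PFC alone. With any count at all in at least 12 libraries of one region and no count in the 17 of the other, there were 27 genes for NAc and 18 for PFC, and an absence of counts limits a level only as far as the depth allows.

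The genes named next were the 2 in each direction with the largest fold among called genes of at least 10 CPM in the higher region that went the same way in all 17 rats. Their agreement in direction over the rats was therefore fixed by the choice, and the values show its size. ENSRNOG00000016999 ranged from 56.6 to 112 CPM in PFC, with a median of 81.3, and from 0.208 to 1.36 CPM in NAc, with a median of 0.646. Its lowest PFC library, of rat B2, was thus far above its highest NAc library, of rat B9. The fitted log2 fold change was 7.04 ± 0.0921 (SE; 95% interval 6.85 to 7.23; edgeR adjusted p = 1.29e-24). The difference ranged from 6.29 to 8.48 over the 17 rats, with an SD of 0.586. The SE and interval were derived from the F value of the fit and not from that SD, and are narrower than the SD would give. Summed over libraries it had 37353 counts in PFC and 302 in NAc. The fitted log2 fold change was 7.21 in the risk-averse rats alone and 6.85 in the risk-seeking rats alone, and the term for their difference did not pass (edgeR adjusted p = 0.638).

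ENSRNOG00000010983 ranged from 7.55 to 18.5 CPM in PFC, with a median of 9.68. In NAc it ranged from 0 to 0.518 CPM, with a median of 0.0668, and 4 NAc libraries had no count. The PFC libraries of B2 (18.5 CPM) and R7 (17 CPM) stood above the other 15, which lay at or under 12.7 CPM, and the NAc libraries of R1 (0.518 CPM) and B3 (0.308 CPM) above the other NAc libraries. The fitted log2 fold change was 6.76 ± 0.241 (SE; edgeR adjusted p = 1.8e-16), with 4709 counts in PFC against 44 in NAc.

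ENSRNOG00000010053 showed the opposite pattern, ranging from 19.8 to 66.7 CPM in NAc, with a median of 50.5, and from 0 to 0.207 CPM in PFC, with a median of 0.0857. The groups did not overlap. Within NAc the libraries of B3 (19.8 CPM) and R2 (22.1 CPM) were lowest. The fitted log2 fold change was -8.97 ± 0.102 (SE; edgeR adjusted p = 9.29e-27), from 23151 counts in NAc and 41 in PFC. The difference ranged from -9.6 to -6.59 over the 17 rats, with an SD of 0.775. The ratio of CPM-scaled counts was 575 in favour of NAc, with a counting interval from 423 to 801. The SE was derived from the F value of the fit. It is narrower than that SD or the counting error would give, so it understates the uncertainty.

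ENSRNOG00000028348 ranged from 9.39 to 19.4 CPM in NAc, with a median of 15.1, and was at 0 in 15 of 17 PFC libraries. The PFC libraries of B9 and N3 held its only 3 counts there, against 6955 in NAc. The ratio of CPM-scaled counts was 2360 in favour of NAc, and its 95% counting interval ran from 807 to 11400. The fitted log2 fold change, which depends on the prior count for a gene with so few counts in PFC, was -10.34 with the rat block (edgeR adjusted p = 1.93e-25). It was -7.99 when the unassigned share was added, and the gene then lost its call (edgeR adjusted p = 0.0855) while the fitted difference stayed large.

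**Figure D3:**
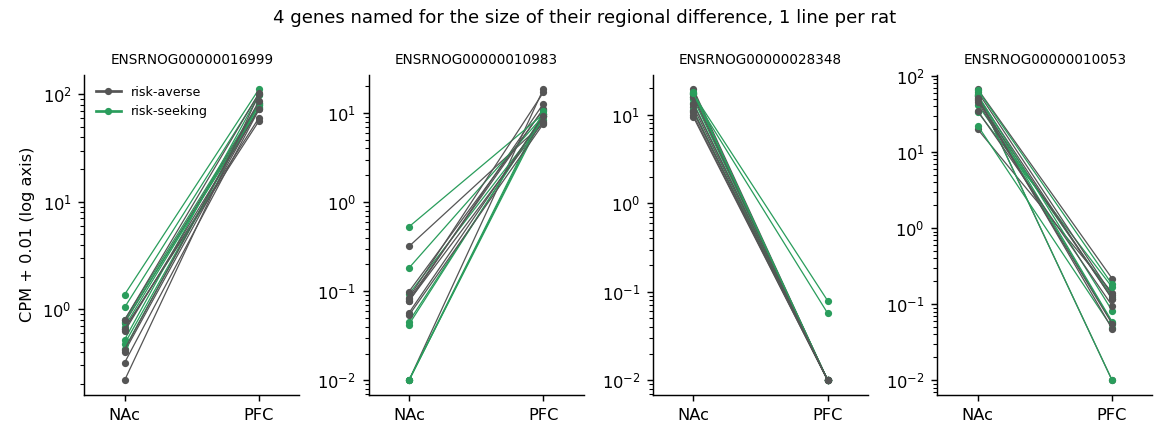
Level of the 4 genes in NAc and PFC (CPM plus 0.01, log axis), with a line for each of the 17 rats joining its 2 libraries, grey for risk-averse and green for risk-seeking. The genes were chosen among those with the same direction in all 17 rats, so the lines of a gene all slope one way, upward to PFC for ENSRNOG00000016999 and ENSRNOG00000010983 and downward for ENSRNOG00000028348 and ENSRNOG00000010053.

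Many differences held in every animal. The PFC minus NAc difference in log2 CPM had the same sign in all 17 rats for 7286 called genes (57.4% of those called), 3674 higher and 3612 lower in PFC. At the other end, 591 called genes went one way in 12 rats or fewer. Of the 2057 genes past the 2-fold bound, 1998 went the same way in every rat and 59 did not. A stricter view is whether any PFC library overlapped any NAc library: for 3598 genes (23.2% of those tested) the 17 PFC libraries lay wholly above or below the 17 NAc libraries, 1869 above and 1729 below, and all of these were called.

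Consistency over the rats followed the size of the difference. Of genes called at under 1.25-fold, 26.5% went the same way in all rats and 1.18% did not overlap between regions. From 1.25-fold to 1.5-fold these shares were 66.2% and 20.4%, and from 2-fold to 4-fold they were 91.2% and 71.9%. At 4-fold and above 98.7% went the same way in all rats and 93.6% did not overlap. The median SD over rats of the difference was 0.13 on the log2 scale for genes called at under 1.25-fold. For those at 4-fold and above it was 0.546. Only called genes enter here, and a small difference is called only where its spread is small, so the low value is in part set by the call. Spread also followed abundance: over all tested genes the median SD was 0.468 in the lowest quartile of mean CPM and 0.12 in the highest. A relation of spread to fold size apart from these was not tested.

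Region was the main axis of variation among the libraries, with the first principal component of log2 CPM taking 73.9% of the variance and the second 3.98%. On the second component the PFC libraries of the risk-averse rats B2 (-29.4), B3 (-26.7), R4 (-22.7) and R7 (-18.7) stood apart from the other 13, which lay between -6.15 and 15.75. In NAc the libraries of B2 (-26.5), B3 (-21.8) and R7 (-17.5) were again lowest, and that of R4 (-9.10) was close to BR9 (-8.48). With these 4 rats left out, a set chosen after the data were seen, 12255 genes were called between regions (5934 higher and 6321 lower in PFC) and 1947 passed the 2-fold bound. Both libraries of a rat also deviated together from their region's mean. The correlation of these deviations across genes was 0.12 to 0.504 for the same rat, with a median of 0.346. Among the libraries of the other region, each library correlated best with that of its own rat. The SD over rats of the paired difference was below the value expected from unpaired libraries for 14166 genes (91.5%), with a median ratio of 0.738. The median SD over rats of a gene was 0.188 in PFC and 0.170 in NAc on the log2 scale, and the SD was larger in NAc for 5594 genes (36.1%).

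Each rat's regional difference was then set against the mean difference of the other 16 rats. The slope across genes was 0.993 ± 0.0544 (SD, n = 17), from 0.907 in BR5 to 1.103 in R1, and the correlation across genes was 0.913 (B3) to 0.959 (N3). Of the genes at least 2-fold different in the mean of the others, 98.7% (B3) to 99.8% had the same sign in the rat left out. The number of genes at least 2-fold apart within a rat was lowest in BR5 (2436) and highest in R1 (2882). These slopes were 0.990 ± 0.0465 in the risk-averse rats (n = 9) and 0.997 ± 0.0653 in the risk-seeking rats (n = 8; exact permutation over 24310 regroupings, two-sided p = 0.803, adjusted p = 0.997 over 7 tests).

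The position of each library along this regional difference was measured as a fraction of the difference, with positive values toward PFC. PFC libraries lay between -0.0481 (BR5) and 0.0222 (N7). NAc libraries were spread over a wider range, from -0.0946 (R1) and -0.0743 (B2) to 0.0860 (R2) and 0.0909 (N7). The mean absolute shift was 0.0427 in NAc and 0.0172 in PFC, and it was larger in the NAc library of 11 of 17 rats (permutation over sign changes, two-sided p = 0.00487, adjusted p = 0.0341 over 7 tests). This call depended on the set of rats: leaving out 1 rat at a time gave adjusted p-values from 0.0156 to 0.0681, with the highest value reached without B2, BR9, N7, R1 or R2, and only 7 of these 17 sets were under 0.05. In the NAc libraries the genes higher in PFC deviated by between -0.253 (R1) and 0.187 (B5) on the log2 scale, and the genes higher in NAc by between -0.180 (N7) and 0.203 (BR9).

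**Figure D4:**
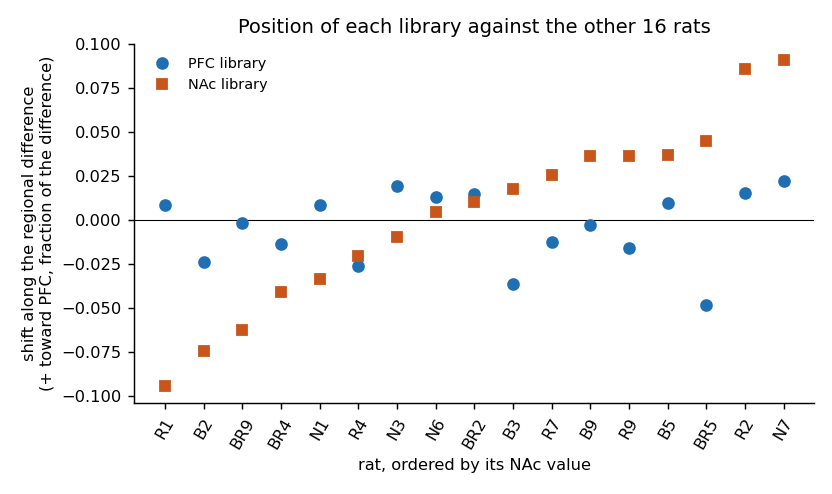
Shift of each rat's PFC and NAc library along the regional difference of the other 16 rats (vertical axis, fraction of the difference, positive toward PFC), with rats ordered by their NAc value. NAc points run from -0.0946 (R1) to 0.0909 (N7), whereas PFC points stay between -0.0481 and 0.0222.

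The series was built to compare rats of different risk preference, and the paired design allows the regional difference to be measured in each class of rats separately. In the 9 risk-averse rats alone 11505 of 15358 genes were called (74.9%), and in the 8 risk-seeking rats alone 11280 of 15446 (73.0%). These sets share no animal. Of 15252 genes tested in both, 10087 were called in both, which is 88.2% of the risk-averse calls and 90.3% of the risk-seeking calls. Of these, 10078 had the same sign and 9 the opposite sign. All 2377 genes called at 2-fold or more in the risk-averse rats had the same sign in the risk-seeking rats, and the median ratio of the log2 fold changes was 0.989. Across genes the log2 fold changes correlated at r = 0.984, and the median absolute difference between them was 0.0845. They were more than 0.5 apart on the log2 scale for 311 genes.

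**Figure D5:**
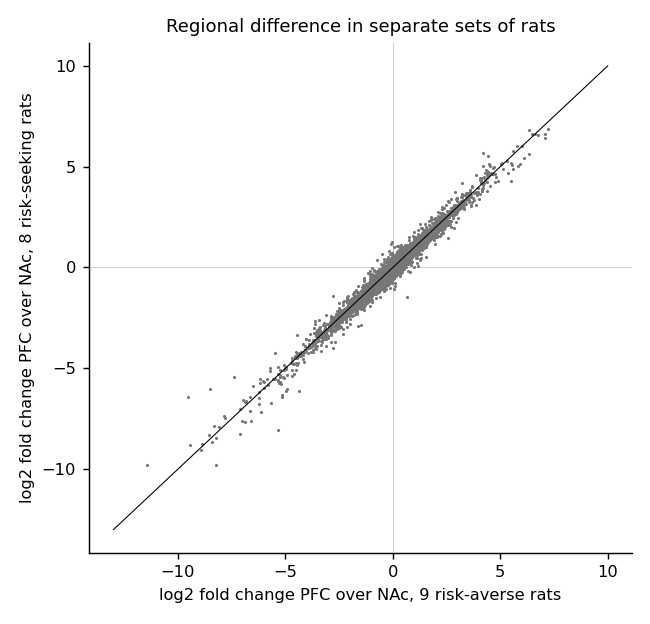
Log2 fold change of PFC over NAc of each gene in the 9 risk-averse rats (horizontal) and the 8 risk-seeking rats (vertical). The points follow the diagonal (r = 0.984 across genes, which are not independent replicates).

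Whether the regional difference depended on preference was tested gene by gene as a region-by-preference term with the rat block. No gene passed (0 of 15488, 0%; edgeR, lowest adjusted p = 0.309). At an unadjusted p under 0.05 there were 1769 genes, where evenly spread p-values would give 774.4. limma-voom also called 0 genes (1766 at an unadjusted p under 0.05), and DESeq2 called 25 (1571 at an unadjusted p under 0.05). The DESeq2 calls, and the edgeR and DESeq2 counts at an unadjusted p under 0.05, were lower without B2, B3, R4 and R7, the risk-averse rats apart on the second component. With the remaining 13 rats and 15382 genes tested, edgeR called 0 genes (lowest adjusted p = 0.937; 675 at an unadjusted p under 0.05) and DESeq2 called 0 (480 at an unadjusted p under 0.05), in a set with 4 fewer risk-averse rats. The 95% interval of the difference between the classes lay within 1.5-fold for 12858 genes (83.0%) and within 2-fold for 14663 (94.7%). These intervals used a normal quantile, which is smaller than the t quantile of the regional intervals, so both counts are somewhat too high. For the remaining genes a 2-fold dependence on preference was not excluded by these 17 rats.

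The genes with the smallest p in each direction are given as values, since none passed. They were chosen among 15488 genes for this difference between the classes, so the choice favours ranges that are apart. The share of all tested genes whose class ranges do not overlap is not given here, and a lack of overlap is no support for an effect. ENSRNOG00000052981 was a rare transcript whose PFC minus NAc difference ranged from 0.528 to 2.43 (median 1.01) in risk-seeking rats and from -0.281 to 0.39 (median -0.0514) in risk-averse rats on the log2 scale. These ranges did not overlap. Its level was 1.22 ± 0.545 CPM in PFC and 0.484 ± 0.17 in NAc of risk-seeking rats, and 0.759 ± 0.179 and 0.767 ± 0.104 in risk-averse rats (SD; n = 8 and n = 9). The term was 1.34 ± 0.256 (SE; edgeR adjusted p = 0.309), and DESeq2 gave no adjusted p for this gene in the 17 rats. Without B2, B3, R4 and R7 the term was 1.29 ± 0.319 (SE; edgeR adjusted p = 0.937).

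ENSRNOG00000030763 was PFC-higher in both classes, with differences of 4.45 to 6.09 (median 5.25) in risk-seeking rats and 3.77 to 4.84 (median 4.31) in risk-averse rats. These ranges overlapped. Risk-seeking rats had 0.253 ± 0.106 CPM in NAc and 12.1 ± 1.1 in PFC, and risk-averse rats 0.474 ± 0.185 and 10.2 ± 1.47 CPM (SD; n = 8 and n = 9). The NAc levels rest on 176 counts summed over the 17 libraries. The term was 1.14 ± 0.234 (SE; edgeR adjusted p = 0.309), and DESeq2 gave no adjusted p for this gene in the 17 rats. Without B2, B3, R4 and R7 the term was 1.22 ± 0.288 (SE; edgeR adjusted p = 0.937).

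ENSRNOG00000007057 had differences of 0.162 to 0.747 (median 0.279) in risk-averse rats and of -0.132 to 0.0893 (median 0.0103) in risk-seeking rats, again without overlap. Its PFC level ranged from 59.8 to 97.7 CPM in risk-averse rats and from 40.9 to 53.5 CPM in risk-seeking rats, whereas its NAc levels overlapped, at 40.6 to 80.8 and 38.9 to 56.5 CPM. The term was -0.38 ± 0.0777 (SE; edgeR adjusted p = 0.309), and DESeq2 gave an adjusted p of 0.00858. Without B2, B3, R4 and R7 the term was -0.37 ± 0.0837 (SE; edgeR adjusted p = 0.937) and the adjusted p from DESeq2 was 0.393.

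ENSRNOG00000053889 was lower in PFC in every risk-seeking rat, by -0.558 to -0.214 (median -0.292), and ranged from -0.238 to 0.484 (median -0.0326) in risk-averse rats. The ranges overlapped slightly. The term was -0.398 ± 0.0882 (SE; edgeR adjusted p = 0.309), and DESeq2 gave it an adjusted p of 0.0121. In PFC the risk-seeking rats had 92.7 ± 7.49 CPM and the risk-averse rats 149 ± 40 CPM (SD; n = 8 and n = 9), a difference not itself tested here. The risk-averse mean in PFC was raised by B3 (202 CPM), R4 (189 CPM), B2 (188 CPM) and R7 (178 CPM), whereas the other 5 risk-averse rats lay between 103 and 135 CPM. The NAc libraries of these 4 rats, at 149 to 192 CPM, were also the highest of their class. Without the 4 rats the term was -0.34 ± 0.103 (SE; edgeR adjusted p = 0.937), and the adjusted p from DESeq2 was 1.

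The share of unassigned read pairs moved with region in every rat, so a fit that holds it constant removes part of the regional contrast by construction. With this share beside the rat block, 7402 genes were called, 3820 higher and 3582 lower in PFC, and 1250 passed the 2-fold bound. Of these, 7336 were among the 12703 called without it, and none of the shared calls had the opposite sign. Of the 2460 genes called at a fitted fold of 2 or more, 196 lost their call. The unassigned share and the region cannot be told apart for the genes that lost their call.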

How the data were processed

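The authors deposited raw counts per gene for each library: whole numbers for 32623 Ensembl identifiers and 5 HTSeq summary categories, which entered neither library sizes nor tests. They came from 101-bp paired-end reads of TruSeq libraries per the labels' protocols, and per the submitters' processing notes the builds were Rnor_6.0 and rn6 and the tools edgeR, HTSeq 0.9.0, STAR 2.5.3a and Trimmomatic. Neither the annotation release nor the strandedness of counting is given in the sources used here. Overlapping, antisense and near-identical genes are therefore uncertain. Of the identifiers, 6796 were at 0 in all 34 libraries.

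Genes kept by filterByExpr were TMM-scaled and fitted in edgeR 4.0.16 (R 4.3.3; glmQLFit with robust=TRUE, glmQLFTest, glmTreat with a log2 bound of 1), with rat and region as terms. Fold changes are PFC over NAc, a standard error is the size of the log2 fold change divided by the root of its F value, and Benjamini-Hochberg adjustment covered all genes tested. Such standard errors and their intervals can be too narrow for genes with a large fold and few counts in a region. The interaction term nested region in preference beside the rat block. CPM used TMM-scaled library sizes, and log2 CPM a prior count of 2. The unassigned share is the no-feature count divided by the sum of no-feature, ambiguous and gene counts. Read categories and library shifts were tested by two-sided permutation. Intervals of count ratios are 95% and exact, and cover counting error only. The fits were also run on simulated counts with known folds, and the outcome is not given here.

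Title codes give the same animal for both regions, so the rat pairs the libraries. Same-rat deviations correlated at 0.12 to 0.504. The 272 pairs of libraries within a region had chi-square values of 6.34 to 63.6 per degree of freedom, above sampling noise, and none was a repeat deposit. Each region of each rat is 1 library. The permutation p-values rest directly on the spread between rats. Those of edgeR, DESeq2 and limma-voom rest on a variance modelled from the same rats with sharing across genes, and not on the SD of a single gene.

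The comparison, the 38 gene lists and the cell type markers were chosen with earlier results of these data known. As 0 identifiers could be matched to a symbol, the lists, the markers, gene coordinates and sequences were not analysed here. The rule for naming genes called for symbols, so it was reduced to the 2 identifiers in each direction with the largest fold among called genes of at least 10 CPM in the higher region and the same direction in 17 rats, and for the interaction to those with the smallest p. The abundance quartiles, the library shifts and their tests, and the fits without 4 rats, were chosen after the data were seen. Alternatives were the fit without the block, all 36 libraries, RLE factors, other filters and thresholds, robust=FALSE, the unassigned share as a covariate, DESeq2 1.42.0, limma 3.58.1, each class of rats alone and leaving out each rat.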

Additional observations from a re-analysis of the deposited data

Results flagged for a closer look

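Each region was looked at within each class of rats for a single library far from the rest, over 60 combinations of measure and group. The rule flagged 4, where a rate of 1 in 20 would give 3. That rate holds for independent groups with a normal spread. Here the measures overlap and some gene levels lie at or near 0, so the 3 is only a rough guide. In the NAc of risk-seeking rats, the library of BR4 had 12.39% of its alignments in more than 1 place, below the 12.74% to 13.05% of the other 7. In the PFC of risk-seeking rats, the library of N3 had 13.70%, above the other libraries at 13.29% to 13.47%. For ENSRNOG00000010983, one of the PFC-higher genes, the NAc library of the risk-averse rat B3 had 0.308 CPM where the others of its group had 0 to 0.089, and that of the risk-seeking rat R1 had 0.518 CPM where the others had 0 to 0.172. In both rats the gene was far higher in PFC, at 7.7 CPM in B3 and 9.68 CPM in R1.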

How the results depend on the processing

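The number of genes called between regions stayed within 1.5 times the main 12703 under every alternative tried except the unassigned share as a covariate. Without the rat as a replicate block 11893 genes were called (5843 higher and 6050 lower in PFC), 11875 of them shared with the paired fit and 0 of the opposite sign, and 1957 passed the 2-fold bound. The other values were 11996 with all 36 libraries, 12713 with RLE factors, 14181 of 25827 with no count filter, 11685 at a mean CPM of at least 1, 12710 with robust=FALSE, 11721 at an adjusted p under 0.01, 12552 by DESeq2 and 12709 by limma-voom. Leaving out 1 rat gave 12476 to 12631 calls (5997 to 6218 higher and 6344 to 6503 lower in PFC) and 1966 to 2023 past the 2-fold bound, and the edgeR interaction stayed at 0 genes. Leaving out B2, B3, R4 and R7 together gave 12255 calls and 1947 past the 2-fold bound.

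With the unassigned share beside the replicate block, 7402 genes were called (3820 higher and 3582 lower in PFC) and 1250 passed the 2-fold bound; this share differed between regions in all 17 rats, and the cause was not tested further. A bound of 1.5-fold in place of 2-fold called 3689 genes, by construction. DESeq2 called 25 genes for the interaction where edgeR and limma-voom called 0, and called 0 itself without B2, B3, R4 and R7. The mean ambiguous share was lower in PFC (0.685% against 0.713%, permutation p = 0.00378), with PFC higher in 5 of 17 rats. Its difference was -0.0343 percentage points in the 9 risk-averse rats alone (exact permutation p = 0.0117) and -0.0212 in the 8 risk-seeking rats alone (exact permutation p = 0.125). Genes with a mean under 1 CPM made up 457 of the 2785 genes not called, and the part of depth in this was not tested. In the lowest abundance quartile (0.28 to 4.69 CPM) 74.9% of the genes were called, against 82.0% of all tested genes.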

Other observations

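The libraries of the rats with 1 region, which enter no paired comparison, can be placed on the same scale. Both rats were risk-seeking. The NAc library of N9 had 0.341 CPM of ENSRNOG00000016999, 0.031 CPM of ENSRNOG00000010983, 47.1 CPM of ENSRNOG00000010053 and 14.1 CPM of ENSRNOG00000028348, each within the range of the 17 paired NAc libraries. The PFC library of R6 had 104, 10.4, 0.0796 and 0 CPM of the same genes in that order, each within the range of the paired PFC libraries. The genes past the 2-fold bound were chosen without these libraries: those higher in PFC held 2.71% of the gene counts of N9 and 8.50% of those of R6, and those higher in NAc held 7.16% and 1.48%.

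A small set of genes had regional differences that were uneven over the rats. Of 14322 genes with at least 1 CPM in a region, 93 had an SD over rats of the log2 difference above 1. Of these 93, 71 were called, 51 higher and 20 lower in PFC, where 82.0% of all tested genes were called. They were rare transcripts, with a median of 3.3 CPM over both regions, and 40 of them still went the same way in all 17 rats. A single rat carried most of the squared deviation for 5 of these genes. The rat farthest from the mean was most often B3 (21 genes), followed by B2 (12) and R1 (11).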
